A study of Sus scrofa with 4 samples.

Results

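Glycogen metabolism in pig back muscle was followed through 9 genes: PRKAG3, GYS1, GBE1, UGP2, PGM1, PYGM, PHKA1, PHKB and PHKG1. They were taken as named enzymes and regulators of glycogen synthesis and breakdown, and each had 1 entry among the 18208 genes of the deposited expression table. Total RNA of longissimus dorsi muscle, the long muscle of the back, gave 1 sequencing library for each of 4 breeds. The indigenous Chinese type consisted of the Diannan Small Ear pig (DSP) and the Tibetan pig (TP), and the introduced type of the Landrace (LL) and the Yorkshire (YY). The labels name the breed, the type and the tissue, and give no age, sex, diet, treatment or number of pigs per library. A breed is thus represented by a single library, and a difference between breeds cannot be told apart from a difference between the animals or samples taken.

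Muscle stores glucose as glycogen. UGP2 activates glucose as UDP-glucose, GYS1 (glycogen synthase of muscle) adds it to the growing chain, and GBE1 makes the branches. PYGM, the muscle phosphorylase, releases glucose 1-phosphate, which PGM1 converts to glucose 6-phosphate for glycolysis, and PGM1 also works in the other direction. PYGM is switched on by phosphorylase kinase, a complex of regulatory alpha (PHKA1 in muscle) and beta (PHKB) subunits, a catalytic gamma subunit (PHKG1 in muscle) and calmodulin. PRKAG3 encodes the gamma-3 regulatory subunit of AMPK, the kinase that senses low cellular energy, and this subunit is typical of fast, glycolytic muscle. In pigs, a PRKAG3 mutation of the Hampshire breed is known for high muscle glycogen and acid meat.

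Levels are FPKM, fragments scaled to transcript length and to the total of the library, as deposited. The values summed to between 880279 and 1450764 FPKM per library, and sequencing depth is unknown, so no counting error could be attached to a value. Mitochondrially encoded genes took 24.0% to 33.2% of the FPKM. Other loci under 300 bp took 20.6% in DSP, 17.7% in LL, 5.55% in YY and 1.39% in TP. Values of different libraries are therefore compared below both as deposited and as ratios within a library. The labelled tissue matched its markers, with the skeletal actin ACTA1 between 16778 FPKM in LL and 50812 FPKM in YY. The summed level of 6 fast fibre markers (MYH1, MYBPC2, TNNC2, ATP2A1, PVALB and CASQ1, of 12 listed) was 46192 FPKM in YY, 38150 in DSP, 30246 in TP and 16535 in LL, so LL stood lowest.

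All 9 genes were expressed in every library, over a wide range of levels per length. PYGM was the most abundant, at rank 21 to 38 in a library among the 11652 genes averaging 1 FPKM or more. PGM1 followed, at rank 39 to 72. PHKA1, PHKB, GYS1, UGP2, PRKAG3 and PHKG1 lay between 33.2 and 564 FPKM, and GBE1 was the least abundant, at 13.0 to 31.6 FPKM. The highest library exceeded the lowest by between 1.60-fold (PHKB) and 3.92-fold (PRKAG3). Across the 11376 such genes that were above 0 in every library, the median of this ratio was 2.36. The library orders given below are those of the deposited values. With the libraries scaled to a median ratio or to either of 2 common sums, the highest or lowest library was another for GYS1, UGP2, PRKAG3, PHKB and PHKG1, though DSP stayed highest for PRKAG3, TP lowest for UGP2 and LL lowest for GYS1 and PHKG1.

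**Figure D1:**
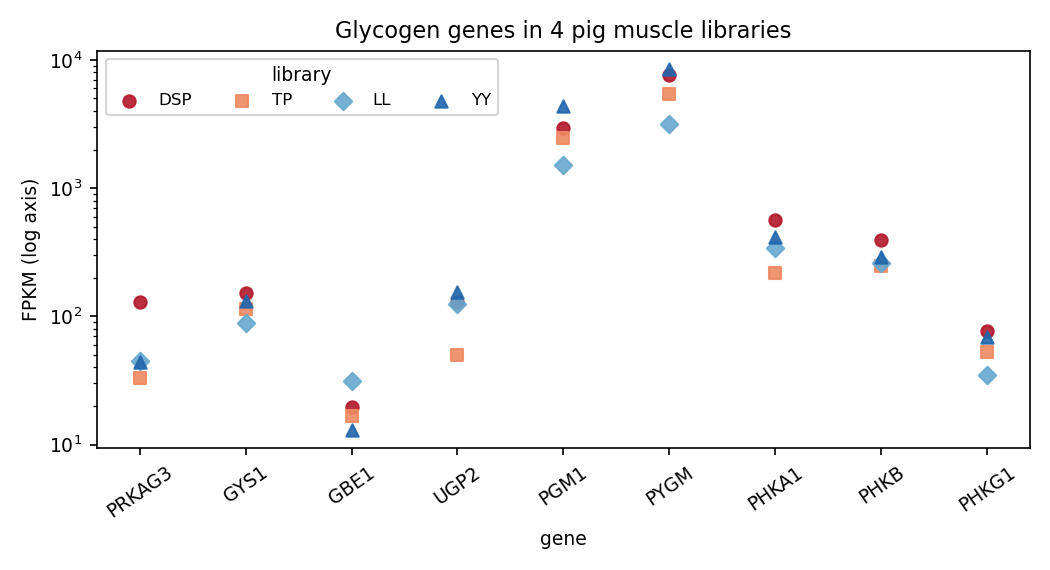
FPKM of each of the 9 glycogen genes (log axis) in the 4 libraries, 1 point per library. PYGM and PGM1 lie highest in every library, GBE1 lies lowest, and the DSP point of PRKAG3 stands apart at 130 FPKM.

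PRKAG3, the gamma-3 subunit of AMPK, was highest in DSP. Its level was 130 FPKM in DSP, 45.0 in LL, 44.3 in YY and 33.2 in TP. The DSP library thus stood apart while the other 3 lay close together, and the types overlapped, since TP was the lowest of all. The entry (ENSSSCG00000016200, chromosome 15, 133753314 to 133852318 in the deposited, unnamed build) covers 99005 bp shared with 5 other entries, none above 14.9 FPKM in any library. Very long transcripts, listed as a sign of RNA quality, were also highest in DSP and lowest in TP: the sum of 9 matched of 12 listed was 3994 FPKM in DSP, 2535 in YY, 2444 in LL and 1539 in TP. Their part in the PRKAG3 values was not tested.

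A share within a library does not depend on how the library was scaled, and by this measure PRKAG3 was the leading gamma subunit in each library. Of the summed gamma subunit FPKM it took 79.3% in DSP and 60.6% in TP, against 54.8% in LL and 41.8% in YY. Both indigenous libraries thus lay above both introduced ones, with a mean of 70.0% ± 13.2 (SD, n = 2) against 48.3% ± 9.19 (SD, n = 2). An exact two-sided permutation test of this difference of 21.7 percentage points gave p = 0.333, which is the smallest value that 2 against 2 libraries can give.

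The other side of this share was PRKAG2, which encodes the gamma-2 subunit. PRKAG2 was 32.5 FPKM in YY, 16.1 in LL, 9.97 in DSP and 5.97 in TP, so both introduced libraries were above both indigenous ones. Its difference, indigenous minus introduced on the log2(FPKM + 1) scale, was −1.45 (SE 0.58, limma unadjusted p = 0.0432, adjusted p = 1), which did not pass. PRKAG1, the widely expressed gamma-1 subunit, ranged from 15.6 FPKM in TP to 29.3 in YY and took 14.6% to 28.4% of the family. The catalytic alpha subunits were almost all PRKAA2, at 94.6% to 96.1%, and the beta subunits almost all PRKAB2, at 96.6% to 98.8%. PRKAB2 itself was 213 FPKM in DSP, 145 in YY, 143 in LL and 86.9 in TP, so it too was highest in DSP and lowest in TP.

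**Figure D2:**
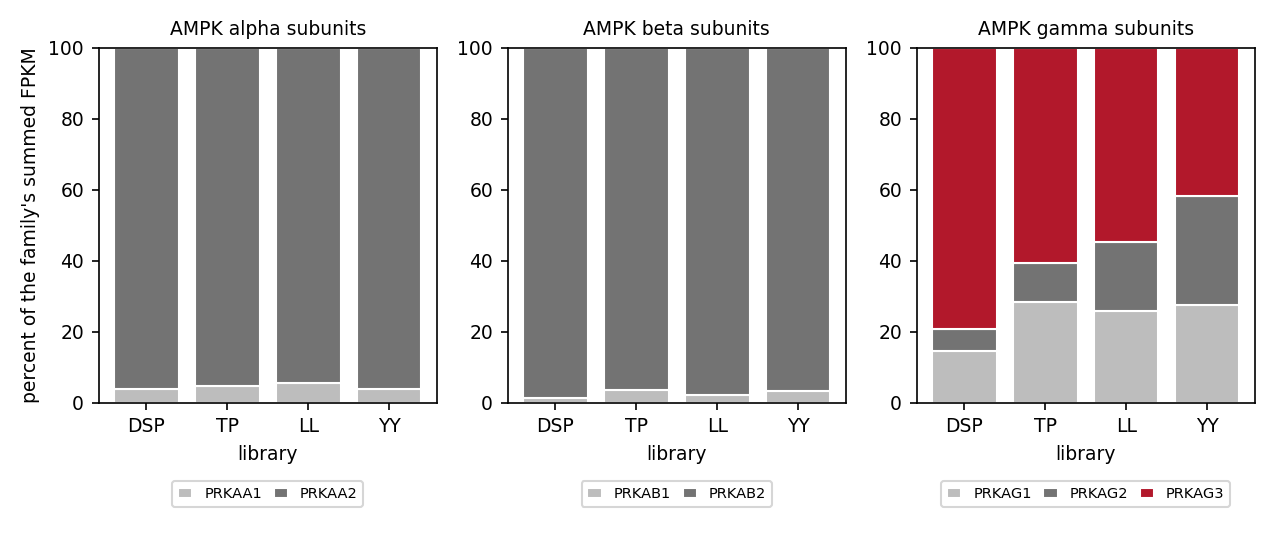
Percent of the summed FPKM of the AMPK alpha, beta and gamma subunit families taken by each isoform in the 4 libraries (stacked bars, 1 library each). The alpha and beta bars are nearly uniform, while the PRKAG3 part of the gamma bars goes from 79.3% in DSP to 41.8% in YY.

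The genes of glycogen synthesis each had their own order of libraries. GYS1 (ENSSSCG00000003154, chromosome 6, 50078375 to 50097694) was 151 FPKM in DSP, 133 in YY, 115 in TP and 88.1 in LL. Only PHKB had a narrower range among the 9, and LL was lowest. Its entry shares the locus with FTL, the ferritin light chain, which was 171 to 944 FPKM and highest in YY. GYS2, the liver synthase, was at most 1.22 FPKM and listed at 0 in YY, so GYS1 took at least 98.9% of synthase FPKM.

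UGP2 stood out for its low value in TP. UGP2 (ENSSSCG00000008368, chromosome 3, 81958719 to 81989330) was 156 FPKM in YY, 130 in DSP, 125 in LL and 50.3 in TP. The other 3 libraries thus lay close together, and relative to GYS1 the UGP2 level was 1.42 in LL, 1.18 in YY, 0.860 in DSP and 0.437 in TP. TP also had the highest summed levels of adipocyte, fibroblast, endothelial, macrophage, smooth muscle and red blood cell markers. Most matched genes of these lists were highest in TP as well. The exceptions were COL1A1, highest in DSP, CD68, highest in YY and lowest in TP, and PDGFRA, FBN1, VWF and MYH11, highest in LL. The sum of 4 adipocyte markers was 120 FPKM in TP against 24.4 in DSP and 31.9 to 66.2 in the introduced libraries. Of the TP sum, CFD alone was 97.4 FPKM. Leptin (LEP) was only 0.478 FPKM in TP and was listed at 0 in each of the 3 other libraries. That of 3 red blood cell markers was 528 FPKM in TP against 80.9 to 171 in the other libraries. The sum of 4 smooth muscle markers was 194 FPKM in TP against 48.4 in DSP and 58.0 to 94.8 in the introduced libraries. The sum of 4 matched of 6 listed skeletal muscle markers was 85074 FPKM in YY, 71467 in TP, 63609 in DSP and 27586 in LL, so TP was not low in these. The part of any of these markers in the UGP2 value was not tested, and in whole tissue fewer fibres and less RNA per fibre cannot be told apart.

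GBE1, the branching enzyme, was highest in LL. GBE1 (ENSSSCG00000012000, chromosome 13, 184018401 to 184112967) was 31.6 FPKM in LL, 19.5 in DSP, 16.6 in TP and 13.0 in YY. LL, where PYGM, PGM1, PHKG1 and GYS1 were lowest, was the library with most GBE1. The level of GBE1 relative to GYS1 was 0.359 in LL and between 0.0977 and 0.145 in the other 3 libraries.

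PYGM and PGM1, the abundant enzymes of the way from glycogen to glucose 6-phosphate, had the same order of libraries. PYGM (ENSSSCG00000013022, chromosome 2, 6542312 to 6553842) was 8512 FPKM in YY, 7636 in DSP, 5408 in TP and 3172 in LL. PGM1 (ENSSSCG00000003812, chromosome 6, 137171270 to 137233581) was 4401 FPKM in YY, 2956 in DSP, 2447 in TP and 1508 in LL. Both were highest in YY and lowest in LL, so that the introduced type held both extremes, and PYGM stayed at 1.93 to 2.58 times PGM1. The PGM1 entry carries that name in the file and by its NCBI gene number, whereas the Ensembl-based names table gives its ID as EFCAB7, and the gene its reads came from was not tested. The liver and brain phosphorylases PYGL and PYGB reached at most 9.13 and 0.243 FPKM, which left PYGM with at least 99.7% of phosphorylase FPKM.

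The phosphorylase kinase subunits showed 2 patterns as deposited. The regulatory subunits were highest in DSP and lowest in TP: PHKA1 (ENSSSCG00000012411, chromosome X, 66183817 to 66288138) was 564 FPKM in DSP, 414 in YY, 343 in LL and 220 in TP. PHKB (ENSSSCG00000002844, chromosome 6, 32141390 to 32408749) was 395 FPKM in DSP, 291 in YY, 261 in LL and 247 in TP, a narrower range. The very long transcripts, with their 3994 FPKM in DSP and 1539 in TP, had the same library order as both, and as PRKAB2; their part in these values was not tested. The catalytic subunit PHKG1 (ENSSSCG00000007744, chromosome 3, 17074783 to 17095321, named PHGK in the file) was 76.5 FPKM in DSP, 68.9 in YY, 52.7 in TP and 34.8 in LL. PHKG1 thus resembled PYGM in being lowest in LL. Its locus is shared with SUMF2, at 6.52 to 28.4 FPKM, which was also lowest in LL.

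The kinase holds its subunits in equal number, and their transcripts differed in level per length. PHKA1 stood at 4.17 to 9.85 times PHKG1, and PHKB at 4.22 to 7.51 times, both ratios being highest in LL. PHKA1 over PHKB was 0.889 in TP and 1.31 to 1.43 in the other libraries. The isoforms known from liver were minor, with PHKA2 at most 0.298% of the alpha and PHKG2 at most 4.87% of the gamma FPKM. Of the summed FPKM of PGM1, PGM2 and PGM5, PGM1 took at least 98.9%. PGM2L1, another relative, was not part of that sum and was 34.6 to 55.0 FPKM (named after its values were seen).

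The balance of the 2 arms was compared within each library. The summed FPKM of PYGM, PHKA1, PHKB and PHKG1 over that of GYS1, GBE1 and UGP2 was 32.6 in TP, 30.8 in YY, 28.8 in DSP and 15.6 in LL. LL was thus the library with the most synthesis transcripts relative to breakdown transcripts, while the other 3 lay close together. PYGM carried most of this sum, and PYGM over GYS1 alone was 64.1 in YY, 50.4 in DSP, 47.0 in TP and 36.0 in LL. PYGM over PRKAG3 was 192 in YY and 163 in TP but 70.4 in LL and 58.7 in DSP.

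The low PYGM of LL ran beside its low fast fibre markers, so each gene was also expressed per 1000 FPKM of the summed fast fibre markers, a ratio chosen after the values were seen. PYGM then became nearly uniform, at 200 in DSP, 192 in LL, 184 in YY and 179 in TP. Its highest library exceeded its lowest by 1.12-fold, against 2.68-fold as deposited. Only 1 of the 11376 genes above 0 in every library varied less in this ratio, for which the median of all genes was 3.47-fold. PGM1 (1.23-fold, with 30 genes varying less) and PHKG1 (1.41-fold, with 161 varying less) were also narrow. The uniformity of PYGM held for the sum of the markers rather than for each: against single fast fibre markers it ranged from 1.38-fold (CASQ1, ATP2A1) to 2.17-fold (PVALB), with 1.72-fold for both MYH1 and TNNC2. Against the general muscle markers ACTA1 and CKM the range was 1.69-fold and 2.53-fold. The low level of LL was not particular to fast fibre markers, as LL was also lowest in the skeletal muscle marker sum, at 27586 FPKM against 63609 to 85074 in the others. MYH1 is part of both sums. It did not extend to the slow fibre marker sum (9 matched of 10 listed). That sum was 10902 FPKM in YY, 7263 in TP, 6390 in LL and 4893 in DSP, so DSP was lowest.

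The remaining genes followed the fast fibre markers less closely. Per 1000 FPKM of fast fibre markers, PRKAG3 was 3.41 in DSP, 2.72 in LL, 1.10 in TP and 0.959 in YY. Expressed like this, LL moved from the middle of the PRKAG3 values to a place beside DSP. DSP and LL also stood together in PYGM over PRKAG3. The same libraries had the larger shares of loci under 300 bp, at 20.6% in DSP and 17.7% in LL. The part of this difference in the PRKAG3 ratios was not tested. GBE1 spread 6.80-fold, with LL at 1.91 and the others at 0.281 to 0.550, and UGP2 spread 4.55-fold, with LL at 7.56 and TP at 1.66. PHKA1, PHKB and GYS1 spread 2.85-fold, 2.51-fold and 1.85-fold, and each was then highest in LL. Of the 11376 genes, 82.9% varied less than GBE1, 66.6% less than UGP2 and 51.7% less than PRKAG3 (3.56-fold). The share was 36.0% for PHKA1, 26.9% for PHKB and 9.01% for GYS1. GYS1 was thus also narrow beside most genes, and PRKAG3 lay near the median. These ratios describe 4 libraries and carry no test. The marker sum includes MYH1, one of the near-identical skeletal myosin genes among which reads may be split, so the sum is uncertain too.

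**Figure D3:**
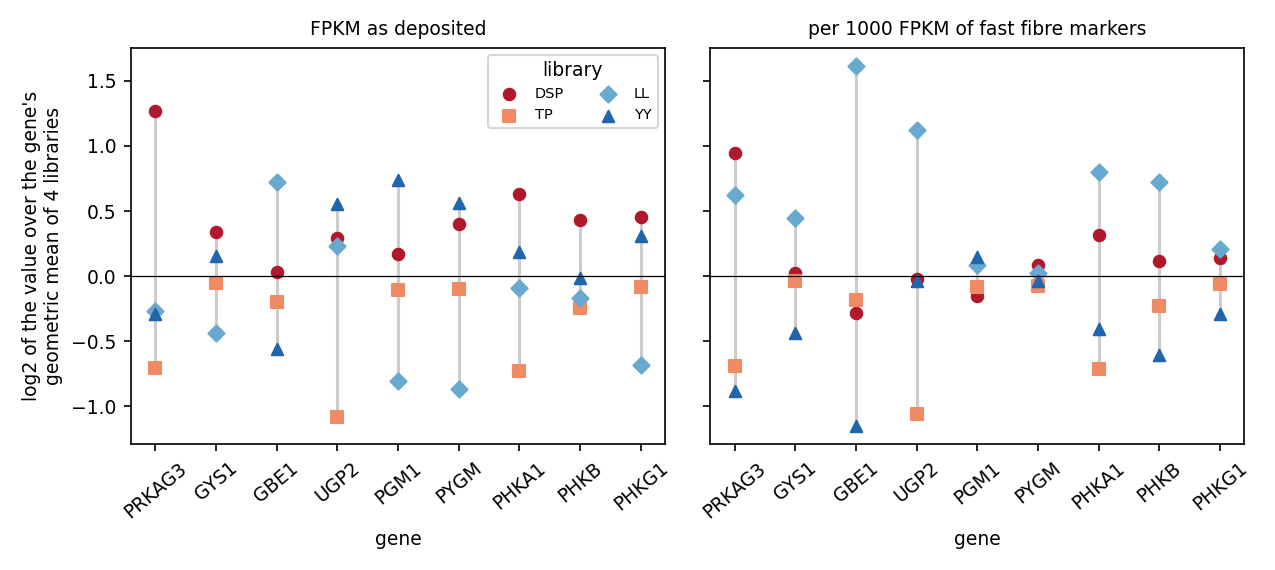
Level of each of the 9 genes in each library as log2 over the gene's own geometric mean of the 4 libraries, with FPKM as deposited (left) and per 1000 FPKM of 6 summed fast fibre markers (right); grey lines span the 4 libraries. PYGM and PGM1 draw together on the right, while PRKAG3, GBE1 and UGP2 stay spread.

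The study set the indigenous against the introduced type, and none of the 9 genes passed in that comparison. Limma was fitted to log2(FPKM + 1) of the same 11652 genes, with Benjamini-Hochberg adjustment, and passed 0 of 9 members (adjusted p = 1 for each) and 0% of all genes. At an unadjusted p under 0.05 there were 0 of the 9 members and 1.12% of all genes, and the types did not overlap in 0 of the 9 members and in 18.6% of all genes. Of the members, 6 had a difference above 0 and 3 below 0, with a median of 0.18 against −0.02 for all genes tested.

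The largest differences were those of UGP2, the UDP-glucose enzyme, and PRKAG3. UGP2 averaged 90.2 ± 56.5 FPKM (SD, n = 2) in the indigenous and 141 ± 21.9 FPKM in the introduced type, a difference of −0.78 (SE 0.77, 95% interval −2.61 to 1.05). PRKAG3 averaged 81.7 ± 68.6 FPKM against 44.7 ± 0.506 FPKM, a difference of 0.55 (SE 0.80, 95% interval −1.36 to 2.47). Each rested on 1 library, as the UGP2 difference became −0.10 without TP, and that of PRKAG3 turned to −0.42 without DSP and was 1.52 without TP. PYGM had a difference of 0.31 with an interval from −2.50 to 3.11, so that changes of several-fold in either direction lay within it.

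The remaining 6 genes had differences between −0.17 and 0.37. These were 0.37 for PHKG1, 0.28 for GYS1, 0.18 for PHKB, 0.06 for PGM1, −0.10 for PHKA1 and −0.17 for GBE1. In the authors' deposited table, which compares the pooled FPKM of the types, PYGM (false discovery rate 8.85e-06), PGM1 (0.00267) and UGP2 (0.0253) were under 0.05 and PRKAG3 (0.0534) was just above. The authors' fold change of PGM1, indigenous over introduced, was 0.914, so its direction was opposite to that of the limma difference of 0.06. Of all 18208 genes in the authors' deposited table, 3.32% were under 0.05, and its PYGM fold change was 1.12, although YY and LL lie on either side of both indigenous libraries.

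**Figure D4:**
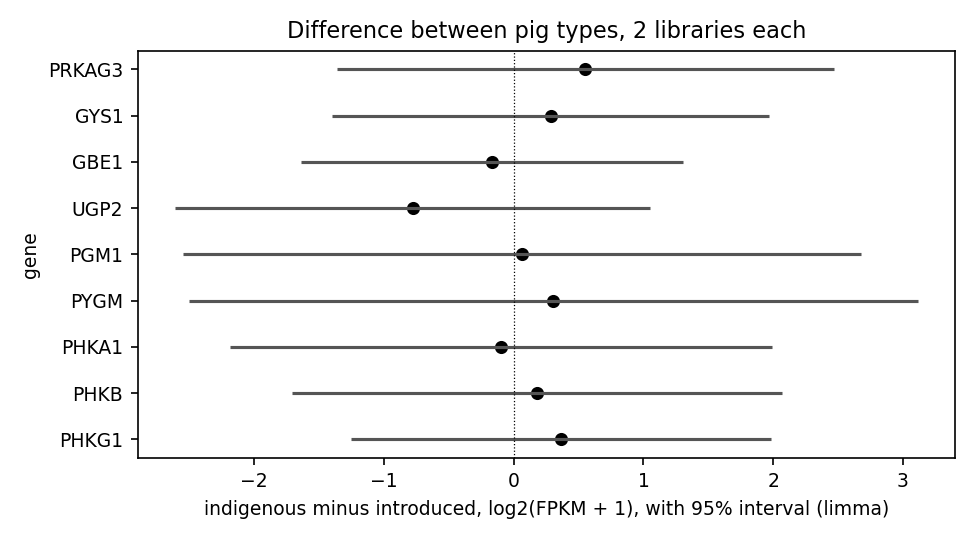
Difference of each gene between the types, indigenous minus introduced, on the log2(FPKM + 1) scale; points are the limma estimates from 2 libraries per type and lines their 95% intervals. Every interval includes 0, from UGP2 at −0.78 to PRKAG3 at 0.55.

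Between single breeds the genes were set side by side without a test, and a difference of at least 1 on the log2(FPKM + 1) scale was counted as 2-fold. Comparisons that share a library are not independent of each other. In DSP minus TP all 9 genes were above 0 as deposited, but 5 were with the libraries scaled to one sum without the 50 most abundant genes, 6 with such a sum over loci of at least 300 bp that are not mitochondrial, and 7 with the sum of the fast fibre markers. PRKAG3 at 1.94, PHKA1 at 1.36 and UGP2 at 1.36 were past 2-fold. These 3 of 9 compare with 15.6% of all genes that were 2-fold higher in DSP, and 0 of 9 with 7.76% of all genes that were 2-fold higher in TP. The median was 0.53 for the 9 genes and 0.20 for all. Under the first of these scalings PRKAG3 alone stayed past 2-fold in that pair, and the median of all genes moved to −0.23. The same held for the sum over loci of at least 300 bp, with that median at −0.20.

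In LL minus YY the genes divided. GBE1 was at 1.22, 2-fold higher in LL like 13.4% of all genes, while PGM1 at −1.54 and PYGM at −1.42 were 2-fold higher in YY like 16.7% of all genes. PRKAG3 was at 0.02 as deposited. It lay at 1.48 with the libraries scaled to the fast fibre markers, a scaling that moved the median of all genes in that pair to 1.26. With the sum over loci of at least 300 bp, PGM1 and PYGM lay at −0.96 and −0.84, no longer past 2-fold.

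Across the types, DSP minus LL had 3 of 9 genes 2-fold higher in DSP, against 4.92% of all genes, and 0 of 9 in LL, against 2.75%. They were PRKAG3 at 1.51, PYGM at 1.27 and PHKG1 at 1.11. PRKAG3 alone remained 2-fold higher in DSP under the 2 other sum scalings. Under the fast fibre sum it lay at 0.32 and none of the 9 was, the median of all genes having moved to −0.91. GBE1 became 2-fold higher in LL over loci of at least 300 bp (−1.15), and so did GBE1 (−1.84) and UGP2 (−1.14) under the fast fibre sum, where 42.2% of all genes were past 2-fold in either direction. In TP minus YY, UGP2 at −1.61 was the 1 gene past 2-fold, against 9.24% of all genes 2-fold higher in YY and 8.03% in TP, and it remained so under each scaling. PRKAG3 was at −0.41 in that pair as deposited, but at 0.16, 0.14 and 0.19 under the sums without the 50 most abundant genes, over loci of at least 300 bp and of the fast fibre markers, so its sign there depended on the scaling.

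**Figure D5:**
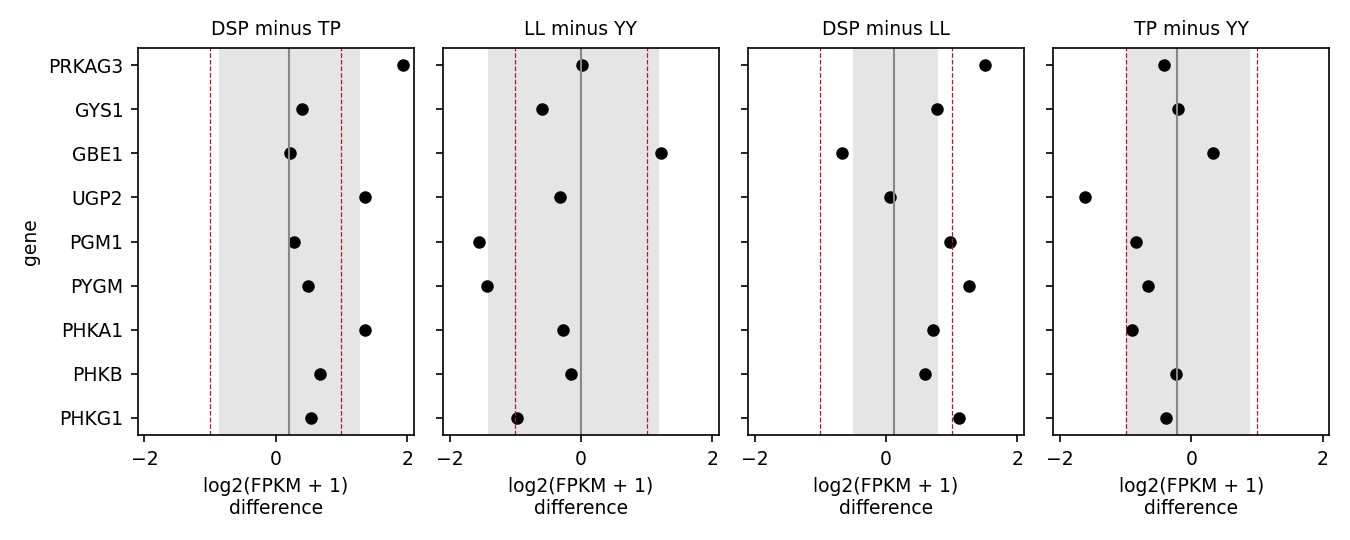
Difference of each gene between 2 single libraries, on the log2(FPKM + 1) scale, in 4 breed pairs; the grey band spans the 10th to 90th percentile of all genes, the grey line their median, and dashed lines mark 2-fold. PRKAG3 lies beyond the band in both pairs with DSP and near 0 in LL minus YY, and UGP2 lies beyond it in DSP minus TP and TP minus YY. Also beyond it are PHKA1 in DSP minus TP, GBE1, PGM1 and PYGM in LL minus YY, and GYS1, GBE1, PGM1, PYGM and PHKG1 in DSP minus LL.

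Other genes of the pathway were read from 5 lists. In none of them did a gene pass limma after adjustment. The list of AMPK subunits and upstream kinases had 10 tested genes, 3 above and 7 below 0, with a median difference of −0.19 and 1 unadjusted p under 0.05, that of PRKAG2. STRADA, a partner of the AMPK-activating kinase LKB1, was at 0.46. The other 4 lists had 0 genes at an unadjusted p under 0.05.

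Glycogen synthesis and precursor supply had 7 tested genes, 5 above and 2 below 0, with a median of 0.11. HK2, the insulin-regulated hexokinase, was 71.7 FPKM in LL, 22.0 in DSP, 21.8 in YY and 11.5 in TP (difference −1.26, SE 0.75). HK2 was thus highest in LL, the library with most GBE1. PGM5 was at 0.47. GYG1, the glycogenin that primes the particle, was named after its values were seen, and was 480 FPKM in YY, 335 in DSP, 246 in TP and 244 in LL.

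Glycogen breakdown had 7 tested genes, 5 above and 2 below 0, with a median of 0.31. PYGL, the liver phosphorylase, was at 0.63.

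The glycogen-bound phosphatase list, with laforin, had 11 tested genes, 8 above and 3 below 0, and a median of 0.25. PPP1R3B, a subunit that targets phosphatase to glycogen, was 50.02 FPKM in TP, 37.1 in DSP, 36.4 in YY and 14.9 in LL (difference 0.85, SE 0.66). LL was again the lowest. PPP1R3C, another targeting subunit, was at 0.50. PPP1R3A, the muscle targeting subunit, was chosen after its values were seen, and was 453 FPKM in DSP against 221 to 316 in the others. The insulin and adrenaline kinases had 8 tested genes, 3 above and 5 below 0, with a median of −0.03, GSK3B (a kinase that inhibits glycogen synthase) at −0.79 and PRKACB at 0.38.

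The genes most like PRKAG3 in profile were found by the Euclidean distance between centred log2(FPKM + 1) values over the 4 libraries, among 6016 other named genes averaging 5 FPKM or more. The nearest was ABCC1, an export pump, at a distance of 0.08, with 25.6 FPKM in DSP, 9.09 in LL, 8.66 in YY and 6.22 in TP. DNAAF5 (0.16), CAND2 (0.19), SH3BP5 (0.23) and MYH13 (0.24) followed. MYH13 is one of a cluster of near-identical skeletal myosin genes, among which reads may be split, and its 1079 to 3453 FPKM are uncertain for that reason. MYH1, part of the fast fibre marker sum, belongs to the same cluster, so the ratios and the scaling built on that sum carry this uncertainty. Among the glycogen genes, PHKA1 was nearest to PRKAG3, at 0.80 and rank 224 of 6016, and PGM1 was farthest, at 1.69 and rank 3699. The closest pairs among the 9 were GYS1 with PHKG1 (0.30), PGM1 with PYGM (0.30) and PHKG1 with PYGM (0.33), and the most distant was GBE1 with PGM1 (1.97).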

How the data were processed

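RNA of 4 muscle libraries was sequenced, 1 per breed. TopHat was the aligner, per the submitters' processing notes. Neither the version, build and annotation nor the program behind the FPKM was stated in the sources used here. The authors deposited FPKM per breed, the mean FPKM of each type, their ratio (fold change) and a p-value with a false discovery rate; the test behind it was not stated. No columns were left unmapped, and the other deposited sheets were not used.

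Members were matched by the name in the file (7 of 9) or by the symbol of the Ensembl ID (PHKA1 and PHKG1), keeping the entry with the highest mean; no sequence was used. Limma 3.58.1 in R 4.3.3, with a trended prior variance, set the types against each other on log2(FPKM + 1), at a mean of at least 1 FPKM and an adjusted threshold of 0.05, with breeds as replicates. These p-values rest on the spread between 2 libraries per type, drawn toward a trend fitted over all genes tested. They measure no spread within a breed. The fit was tested on simulated data. Breed pairs, shares and ratios were computed without a test in Python 3.11.15 (numpy 2.4.6, pandas 2.3.3, matplotlib 3.10.9). The genes named were all 9 members, their isoforms, the 2 genes of each pathway list with the largest difference between types, and the 5 nearest profiles to PRKAG3; others are marked as chosen later. Some genes that this rule names are not reported here. Members and lists were chosen with earlier results of these data known.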

Additional observations from a re-analysis of the deposited data

How the results depend on the processing

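The members passing limma numbered 0 under every alternative run: pseudocounts of 0.1 and 5, no filter or 5 FPKM, 4 scalings, summed entries, limma with an untrended or a robust prior, and without each library. Over all genes, limma passed 3 with a pseudocount of 0.1, 0 to 29 without each library (29 without YY, with LL assumed to vary like the indigenous type), and 59 with the libraries scaled to a common sum of the fast fibre markers, a scaling added after the data were seen that moved the median of all genes between the types to −0.29; the cause was not tested. Leaving out each library moved the type difference from −0.42 to 1.52 for PRKAG3, −0.0087 to 0.58 for GYS1, −0.78 to 0.45 for GBE1, −0.71 to 0.83 for PGM1, −0.41 to 1.02 for PYGM, −0.77 to 0.58 for PHKA1, −0.16 to 0.52 for PHKB and −0.12 to 0.85 for PHKG1, so only UGP2 kept its sign (−1.46 to −0.10). PHKA1 turned to 0.043 under the common sum without the 50 most abundant genes, and GYS1 (−0.011), PGM1 (−0.24) and PHKB (−0.12) turned under the fast fibre sum.

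Under both other sum scalings 1 member was past 2-fold in DSP minus TP. In LL minus YY it was 1 over loci of at least 300 bp and 5 under the fast fibre sum, where 63.8% of all genes were past 2-fold, their median lay at 1.26 and PYGM turned to 0.058. In DSP minus LL it was 1 without the 50 most abundant genes, and PHKG1 turned to −0.068 under the fast fibre sum. Summing the 2 entries of PRKAA1 gave it 5.38% of alpha FPKM in DSP, 5.81% in TP and 7.62% in LL, with PRKAA2 at 94.6%, 94.2% and 92.4%. No paired analysis was possible because each library came from a different breed, and the labels link no indigenous library to an introduced one. Unknown depth and 1 library per breed limit every value.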
